A study of Mus musculus with 15 samples.

Results

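The D-type cyclins and the regulators of the G1 phase that act with them were followed here as 10 genes: Ccnd1, Ccnd2 and Ccnd3, the kinase genes Cdk4, Cdk6 and Cdk2, the pocket protein genes Rb1 and Rbl1, the transcription factor gene E2f1 and the inhibitor gene Cdkn1b. They were taken by symbol from a deposited count table of 55367 genes, and all 10 were found in it. The libraries come from the medial cortex of C57BL/6 mouse embryos at E11.5 (embryonic day), stained with annexin V, a protein that binds phosphatidylserine exposed at the cell surface, and with propidium iodide (PI), a dye kept out by an intact membrane. The compared groups are 6 bulk libraries of AnnexinV-positive, PI-negative cells and 6 bulk libraries of cells negative for both stains, called double-negative, from the same tissue, age and strain. The bulk libraries were made by an adapted form of smart-seq2, per the labels, a way to amplify whole cDNA of few cells. The other 3 samples of the series carry no sort label and were not analysed here. Whether replicates are separate embryos, sorts or aliquots is not labelled, and p-values therefore cover the spread of these 12 libraries, part of which may be technical.

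A cell that divides decides in G1 whether to copy its DNA. Mitogen signals raise D-type cyclins, which bind CDK4 and CDK6; these kinases phosphorylate the retinoblastoma protein RB and its relative p107 (from Rbl1), which then release E2F transcription factors. E2F proteins switch on genes of DNA synthesis and E-type cyclins, which bind CDK2 and complete the phosphorylation of RB, while p27 (from Cdkn1b) holds cyclin-CDK complexes in check in cells that leave the cycle. In the embryonic cortex, cyclins D1 and D2 are made by progenitors that line the ventricle, and neurons leave the cycle with p27 present.

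E2F proteins act through short motifs in promoters, and the promoter of Rbl1 is shown because it held such a motif closest to the annotated start. RefSeq windows on GRCm38.p6 matched 7 of the 10 members (not Ccnd1, Ccnd2 or Rb1), with 8 windows in all. The 250 bases before each start were searched on both strands for the 4 words TTTCGCGC, TTTGGCGC, TTTCCCGC and TTTGCCGC, of which no member window held more than one. A match stood 18 bases before the start of Rbl1 and, on the opposite strand as GCGGGAAA, 140 bases before the start of Cdk2. The windows of E2f1, Cdk6, Cdk4, Cdkn1b and Ccnd3 held none of these letters, and those of E2f1, Cdk6 and the second start of Ccnd3 lie inside the longer GENCODE gene. Of all 32851 windows, 1.86% held such a word, and of those of genes tested below 3.83%. The window of Rbl1 (GRCm38.p6, chr2:157204535-157204784, minus strand, read 5′ to 3′ towards the start, motif in capitals) reads:
Rbl1: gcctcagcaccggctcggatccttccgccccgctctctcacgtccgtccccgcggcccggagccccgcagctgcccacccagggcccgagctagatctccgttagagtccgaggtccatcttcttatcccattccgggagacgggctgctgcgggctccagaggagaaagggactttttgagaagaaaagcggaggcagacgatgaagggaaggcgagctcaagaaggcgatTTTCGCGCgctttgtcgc

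Total counts were 190694 to 444412 in AnnexinV-positive libraries and 88193 to 329813 in double-negative libraries. Genes detected numbered 9145 to 10065 in AnnexinV-positive libraries and 6571 to 8887 in double-negative libraries. The unit used below is CPM, counts per 1000000 counts of the genes past the count filter of the test, scaled by TMM. The CPM of a gene under that filter is therefore not a share of all counts. A single count was worth 2.41 to 5.74 CPM in AnnexinV-positive libraries and 3.60 to 15.4 CPM in double-negative libraries. The highest value belonged to double-negative library 3. Haemoglobin genes made up 11.998%, 30.8% and 12.3% of the total counts of double-negative libraries 1, 2 and 3, and no more than 0.00964% of those of any other library. A single rRNA gene took 21.5% to 41.3% of the total counts in AnnexinV-positive libraries and 22.3% to 43.6% in double-negative libraries. Between replicates of a group, counts differed by 4.44 to 30.1 times the sampling noise (chi-square per degree of freedom), so no pair was a library deposited again.

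**Figure D1:**
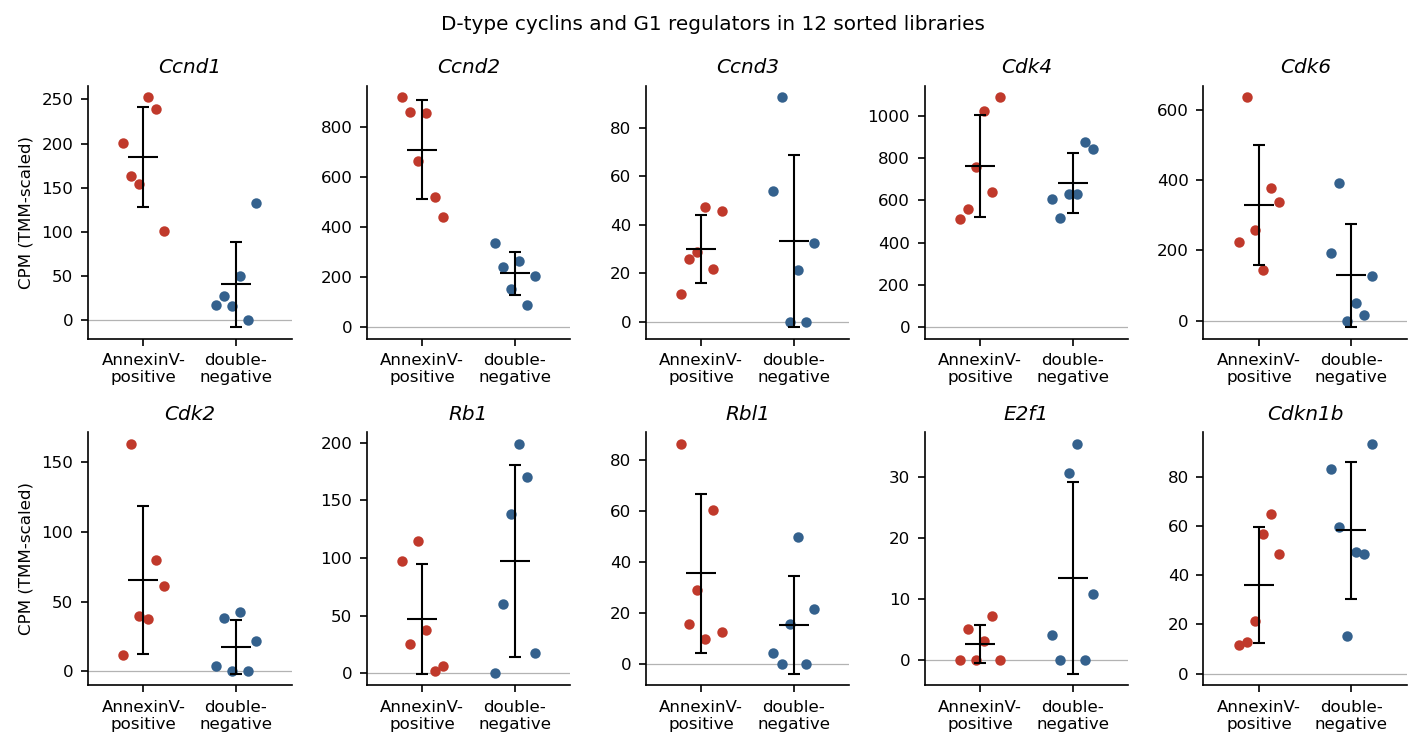
CPM of the 10 members in each library (points, replicates 1 to 6 from left to right), with the group mean and SD (black bars), for AnnexinV-positive (red) and double-negative (blue) libraries. The ranges of Ccnd2 do not meet, those of Ccnd1 meet through double-negative library 6 at 133 CPM, and those of the other 8 members overlap.

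Cyclin D2 was higher in AnnexinV-positive cells in each library. Ccnd2, the D-type cyclin gene on chromosome 6 at 127125162 to 127152193 (GRCm38, GENCODE M21, minus strand), stood at 918, 860, 666, 858, 518 and 440 CPM in AnnexinV-positive libraries 1 to 6, against 337, 239, 154, 263, 89.0 and 205 CPM in double-negative libraries 1 to 6. The lowest AnnexinV-positive library lay above the highest double-negative one. In edgeR's quasi-likelihood test Ccnd2 rose by 1.70 on the log2 scale (SE 0.30, 95% interval 1.09 to 2.31, adjusted p = 0.00214 over the 3800 genes tested). It was the single member past the threshold of 0.05 (1 of 7 tested), beside 15 genes or 0.395% of all tested genes higher and 56 genes or 1.47% lower. Ranges that did not overlap, with the AnnexinV-positive group higher, were found for 1.34% of all tested genes.

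Ccnd2 was higher in both numbered sets of libraries, though the call was lost in the second set. Replicates 1 to 3 alone gave 1.74 (SE 0.32, adjusted p = 0.0129 in edgeR), and replicates 4 to 6 alone gave 1.68 (SE 0.44, adjusted p = 0.123 in edgeR). Without the 3 double-negative libraries that hold haemoglobin counts it was 1.94 (adjusted p = 0.0110 in edgeR). Leaving out double-negative libraries 3 and 5, which have the fewest detected genes, gave 1.46 (adjusted p = 0.0171 in edgeR). With the haemoglobin genes and the rRNA gene removed, the log2 fold change of Ccnd2 was 1.69 (adjusted p = 0.00235 in edgeR).

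Cyclin D1 had the largest fold change among the tested members, but its libraries were more scattered and it did not pass. Ccnd1, on chromosome 7 at 144929931 to 144939925, stood at 201, 163, 154, 252, 239 and 101 CPM in AnnexinV-positive libraries 1 to 6, against 16.7, 27.2, 15.4, 49.7, 0 and 133 CPM in double-negative libraries 1 to 6. The double-negative values are 4, 5, 1, 7, 0 and 37 counts, and the 0 in library 5 allows up to 24.3 CPM (3 counts). Double-negative library 6 lay above AnnexinV-positive library 6 and was the sole double-negative library to reach the AnnexinV-positive range. The log2 fold change was 2.06 (SE 0.58, 95% interval 0.87 to 3.25, adjusted p = 0.0648 in edgeR). Without library 6 of the double-negative group the value was 3.02 (adjusted p = 0.00814 in edgeR). Ccnd1 also passed with upper-quartile scaling, without a filter and with the numbered set as a term in edgeR (adjusted p = 0.0464, 0.00517 and 0.0382), in DESeq2 (adjusted p = 0.0130) and on the second deposited table in limma (adjusted p = 0.0455). Within replicates 1 to 3 the value was 3.10 (adjusted p = 0.0340 in edgeR) and within replicates 4 to 6 it was 1.57 (adjusted p = 0.564 in edgeR); the difference between these sets was not tested. Leaving out double-negative libraries 1 to 3 gave 1.49 (adjusted p = 0.345 in edgeR), and leaving out numbers 3 and 5 gave 1.68 (adjusted p = 0.168 in edgeR). Of the 24 alternatives, Ccnd1 passed in 7 and did not pass in 17. With a library left out, adjusted p ran from 0.00814 to 0.141 in edgeR. The sole one of these fits to pass was that without double-negative library 6.

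Cyclin D3, whose gene lies on chromosome 17 at 47505051 to 47599691, was scarce and showed no direction. Ccnd3 stood at 11.48, 25.8, 28.7, 47.3, 21.7 and 45.8 CPM in AnnexinV-positive libraries 1 to 6, against 54.2, 92.5, 0, 21.3, 0 and 32.4 CPM in double-negative libraries. These are 59 counts in the AnnexinV-positive group and 42 in the double-negative group, below the count filter of the test. A fit with no filter gave −0.052 (SE 0.98, adjusted p = 0.984 in edgeR), and its sign changed between alternatives. The zero counts in double-negative libraries 3 and 5 allow up to 46.1 and 24.3 CPM (3 counts), so absence cannot be shown at this depth.

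On the second deposited table, Ccnd2 had the highest value of the 3 D-type cyclin genes in every library. Levels of different genes were compared on the second deposited table, whose values are named TPM but have no fixed sum per library, so they are called scores. Of the summed score of the 3 D-type cyclin genes, Ccnd2 made up 75.9% to 90.0% (median 84.1%) in AnnexinV-positive libraries and 63.6% to 100% (median 82.7%) in double-negative libraries. The share of Ccnd1 was 6.48% to 20.4% (median 12.2%) in AnnexinV-positive libraries and 0% to 24.5% (median 2.64%) in double-negative libraries. The share of Ccnd3 reached 26.8% and 22.1% in double-negative libraries 1 and 2, on 13 and 17 counts, and was at most 9.63% in AnnexinV-positive libraries. In double-negative libraries 3, 4, 5 and 6 it was 0%, 4.09%, 0% and 11.9%. Libraries 3 and 5 of that group held 10 and 11 Ccnd2 counts, so their shares rest on few counts. The score given to a Ccnd3 count, relative to the library's median gene, ran from 0.998 to 3.65 between libraries, so its shares are uncertain.

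Neither kinase partner of the D-type cyclins passed the test. Cdk4, on chromosome 10 at 127063534 to 127067920, was present in all libraries, at 511, 558, 756, 1025, 639 and 1087 CPM in AnnexinV-positive libraries 1 to 6, against 608, 517, 630, 632, 874 and 841 CPM in double-negative libraries. Libraries of both groups lay within the same range from 511 to 1087 CPM. The log2 fold change was 0.16 (SE 0.24, adjusted p = 0.792 in edgeR), and its 95% interval of −0.34 to 0.65 lies below the lower bound for Ccnd2. On the second table, where the median of all tested genes moved from the count fit by 0.36, Cdk4 had 0.65 (adjusted p = 0.195 in limma).

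Cdk6, on chromosome 5 at 3341485 to 3531008, stood at 224, 636, 258, 145, 379 and 339 CPM in AnnexinV-positive libraries 1 to 6, against 192, 391.8, 0, 49.7, 16.2 and 126 CPM in double-negative libraries. The 6 AnnexinV-positive libraries all exceeded 87.8 CPM, the median of the other group, while double-negative library 2 exceeded 5 of them. The log2 fold change of 1.27 (SE 0.60, 95% interval 0.00 to 2.54, adjusted p = 0.318 in edgeR) did not pass. Leaving out double-negative libraries 1 to 3 gave 2.26 (adjusted p = 0.0442 in edgeR), and it was 1.44 (adjusted p = 0.0266 in edgeR) with no filter, where 17283 genes were tested and 1.37% passed. Leaving out double-negative libraries 3 and 5 gave 0.82 (adjusted p = 0.501 in edgeR), and it was 1.93 (adjusted p = 0.0665 in edgeR) without library 2 of that group.

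Cdk2, the partner of E-type cyclins, on chromosome 10 at 128697939 to 128705031, stood at 11.48, 163, 39.4, 37.8, 79.6 and 61.1 CPM in AnnexinV-positive libraries 1 to 6, against 4.17, 38.1, 0, 42.6, 0 and 21.6 CPM in double-negative libraries. Of the 141 counts in the AnnexinV-positive group, 63 were in library 2, and the double-negative group held 20 counts. The log2 fold change was 1.79 (SE 0.82, 95% interval 0.09 to 3.48, adjusted p = 0.289 in edgeR), and 1.26 without AnnexinV-positive library 2.

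**Figure D2:**
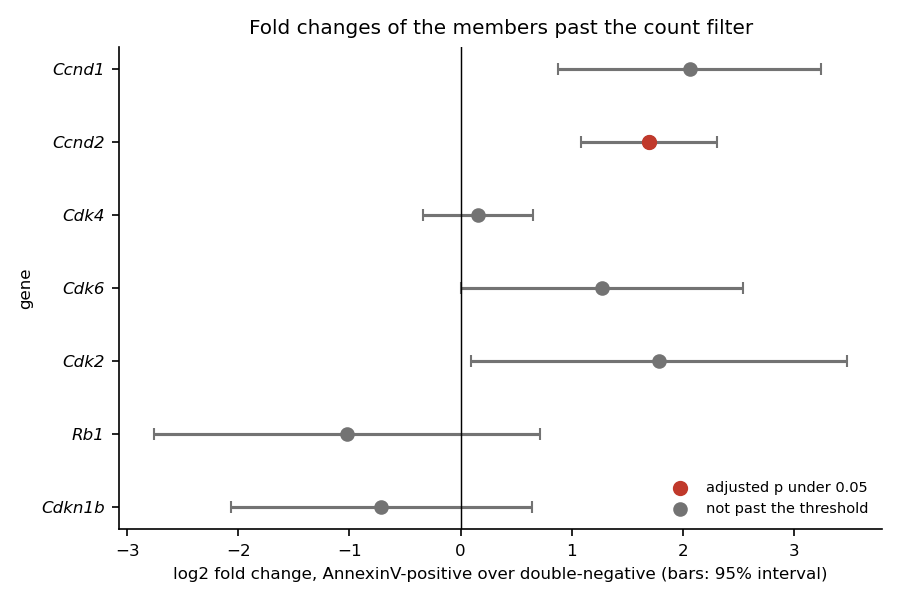
Log2 fold changes of the 7 members past the count filter, AnnexinV-positive over double-negative, with 95% intervals from edgeR's quasi-likelihood fit. Ccnd2 (red) is past the threshold, the interval of Cdk4 is the narrowest, from −0.34 to 0.65, and those of Rb1 and Cdkn1b also span 0.

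The pocket protein genes gave scattered counts. Rb1, which encodes RB and lies on chromosome 14 at 73183673 to 73325822, stood at 97.6, 25.8, 115, 37.8, 2.41 and 6.11 CPM in AnnexinV-positive libraries 1 to 6, against 0, 59.9, 138, 199, 170 and 17.98 CPM in double-negative libraries. Each group held 74 counts and libraries near zero as well as libraries above 90 CPM. The log2 fold change was −1.02 (SE 0.84, 95% interval −2.76 to 0.71, adjusted p = 0.613 in edgeR). Its sign was positive within replicates 1 to 3 (0.47, SE 1.11) and negative within replicates 4 to 6 (−3.03, SE 1.13), and neither value passed (adjusted p = 0.928 and 0.344 in edgeR).

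Rbl1, the gene of p107 whose promoter is printed above, lies on chromosome 2 at 157145893 to 157204534. It stood at 86.1, 15.5, 28.7, 9.46, 60.3 and 12.2 CPM in AnnexinV-positive libraries 1 to 6, against 4.17, 0, 15.4, 49.7, 0 and 21.6 CPM in double-negative libraries. The sums were 61 counts in the AnnexinV-positive group and 15 in the double-negative group, under the count filter. A fit with no filter gave 1.31 (SE 1.15, adjusted p = 0.556 in edgeR). It exceeded the median of double-negative libraries in 5 of the 6 AnnexinV-positive ones, with overlapping ranges.

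E2f1, on chromosome 2 at 154559407 to 154569892, was close to the detection limit. It had 0, 2, 0, 1, 3 and 0 counts in AnnexinV-positive libraries 1 to 6, against 1, 0, 2, 5, 0 and 3 counts in double-negative libraries. The fit with no filter gave −1.90 (SE 1.64, adjusted p = 0.547 in edgeR), a value that rests on 17 counts in all and gives no direction.

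Cdkn1b, on chromosome 6 at 134920401 to 134925513, stood at 11.48, 12.9, 21.5, 56.8, 65.1 and 48.9 CPM in AnnexinV-positive libraries 1 to 6, against 83.3, 59.9, 15.4, 49.7, 48.6 and 93.5 CPM in double-negative libraries. Among AnnexinV-positive libraries, numbers 1 to 3 all lay below numbers 4 to 6, while double-negative libraries did not split in this way. The log2 fold change was −0.71 (SE 0.66, 95% interval −2.07 to 0.64, adjusted p = 0.649 in edgeR).

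By score, the order of the members was led in both groups by Cdk4 and Ccnd2. Median scores in AnnexinV-positive libraries were 1281 for Cdk4, 499 for Ccnd2 and 79.0 for Ccnd1, and those of the other 7 lay between 0.661 and 27.4. In double-negative libraries they were 881 for Cdk4, 149 for Ccnd2 and 31.2 for Rb1, with Ccnd1 eighth at 5.43. Cdk4 (949 to 1924 in AnnexinV-positive and 522 to 1381 in double-negative libraries) lay above Ccnd2 (262 to 918 in AnnexinV-positive and 48.2 to 251 in double-negative libraries) in both groups without overlap. In AnnexinV-positive libraries Ccnd2 lay above Ccnd1 (28.7 to 106) without overlap, and Ccnd1 overlapped Cdk6, the next member (13.6 to 76.6). In double-negative libraries Ccnd2 overlapped Rb1 (0 to 175), and the members below Ccnd2 all overlapped their neighbours. The score given to a count, relative to the library's median gene, ran from 0.417 to 3.33 for Rb1 and from 0.891 to 2.07 for Ccnd2 between libraries, so the length behind a score was not constant.

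Genes with exons on the other strand overlap 7 of the members in GENCODE M21, and the strand setting of the counting is not given in the sources used here. Gm43126 and 9330179D12Rik, which overlap Ccnd2 (1310 counts in the AnnexinV-positive group, 240 in the double-negative group), had 86 and 3 counts in the AnnexinV-positive group and 29 and 14 in the double-negative group. LTO1, which overlaps Ccnd1 (353 counts in the AnnexinV-positive group, 54 in the double-negative group), had 39 counts in the AnnexinV-positive group and 26 in the double-negative group. Bysl, which overlaps Ccnd3 (59 counts in the AnnexinV-positive group, 42 in the double-negative group), had 14 counts in the AnnexinV-positive group and 17 in the double-negative group. For Rb1, with 74 counts in each group, the partners Rcbtb2 and Lpar6 had 116 and 75 counts in the AnnexinV-positive group and 48 and 15 in the double-negative group, so its values are uncertain.

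No other regulator of the passage into S phase passed the test. Of 40 such genes 19 were tested, 0 rose and 0 fell, 12 had a positive sign, beside 2026 of all 3800 tested genes, and the median log2 fold change was 0.50, against 0.06 over all tested genes. At an unadjusted p under 0.05 in edgeR, 5 were higher and 1 was lower, where 15.7% of all tested genes were found in either direction; DESeq2 called 0, and edgeR with no filter called 1, Cks1b. The 6 with the smallest p were Cks1b, Mnat1, Rbbp7, Fbxw7, Mycn and Tfdp1. Cks1b, a small subunit bound by CDKs that helps degrade p27, had 1.44 (SE 0.49, adjusted p = 0.126 in edgeR; 0.0266 with no filter). Mnat1, part of the kinase that activates CDKs, had 2.25 (SE 0.89), Tfdp1, the dimer partner of E2F proteins, 0.98 (SE 0.47), and Mycn, a MYC family factor of progenitors, 1.09 (SE 0.52). Rbbp7, a histone-binding partner of RB, had 0.95 (SE 0.42), and Fbxw7, of the ubiquitin ligase that degrades cyclin E, had −1.33 (SE 0.62). Adjusted p of these 5 was 0.195 to 0.298 in edgeR.

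Inhibitors of CDKs, named here for their role and chosen after their values were seen, gave no call. Cdkn1c, which encodes p57, averaged 55.5 ± 44.4 CPM in the AnnexinV-positive group against 123 ± 68.7 CPM in the double-negative group (SD, n = 6 each), with a log2 fold change of −1.14 (SE 0.62, adjusted p = 0.379 in edgeR). Cdkn1a, which encodes p21, averaged 54.8 ± 102 CPM in the AnnexinV-positive group against 125 ± 203 CPM in the double-negative group (SD, n = 6 each) and was below the filter. Cdkn2c and Cdkn2d, of the INK4 family that binds CDK4 and CDK6, had 4 and 23 counts over the AnnexinV-positive group, against 12 and 39 over the double-negative group. Cdkn2a and Cdkn2b had 0 counts in all 12 libraries, which allows up to 7.23 CPM in the deepest and 46.1 CPM in the shallowest.

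Downstream, 1 of the E2F target and S-phase genes passed the test. Of 30 genes 22 were tested, 1 rose and 0 fell, 20 had a positive sign, and the median was 0.71, beside 0.395% of all tested genes called higher and 2026 of 3800 with a positive sign. Genes of this list, like the members, could pass the count filter through the group in which they were high, so these counts are a description. The gene that rose was Mki67, a marker of cycling cells, at 499 ± 103 CPM in the AnnexinV-positive group against 171 ± 98.9 CPM in the double-negative group (SD, n = 6 each; log2 fold change 1.51, SE 0.33, adjusted p = 0.0121 in edgeR). It lost the call in 4 of 24 alternatives. The helicase genes Mcm3, Mcm2 and Mcm6 had 1.74 (SE 0.69), 1.68 (SE 0.67) and 0.97 (SE 0.53), and the nucleotide enzyme genes Dut and Rrm1 had 1.10 (SE 0.45) and 0.74 (SE 0.38), with adjusted p from 0.198 to 0.388 in edgeR.

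**Figure D3:**
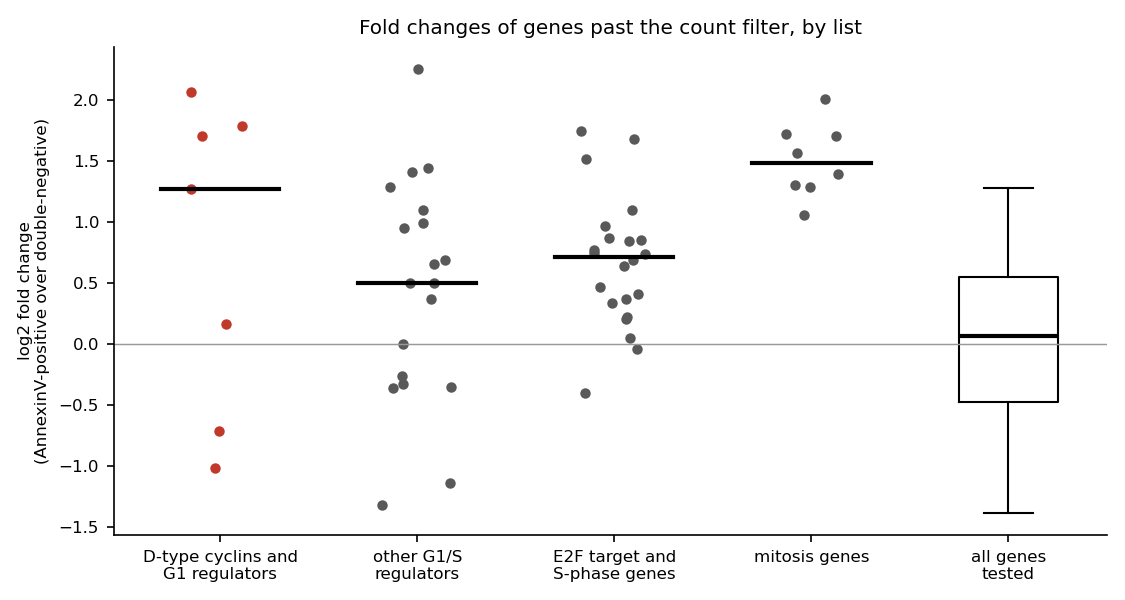
Log2 fold changes (AnnexinV-positive over double-negative) of genes past the count filter, one point per gene, with the list median (black line), beside a box of all 3800 tested genes (box: quartiles, whiskers: 5th and 95th percentile). The medians were 1.27 for the 7 tested members, which is a description since members passed the filter partly through the group in which they were high, 0.50 for the other G1/S regulators, 0.71 for the E2F target and S-phase genes and 1.48 for the mitosis genes.

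Neuron markers fell in AnnexinV-positive libraries, while 1 mitosis gene and no progenitor marker passed. Of all 3800 tested genes, edgeR called 0.395% higher and 1.47% lower, and 15.7% had an unadjusted p under 0.05 in either direction. DESeq2 called 74 of these 3800 genes higher and 127 lower. The summed level of 12 neuron markers was 302 to 1064 CPM in the AnnexinV-positive group against 1817 to 4333 CPM in the double-negative group, and 5 of 9 tested markers fell, among them Dcx (−3.05, SE 0.41, adjusted p = 0.000134), Stmn2 (−4.06, SE 0.60, adjusted p = 0.000353) and Ina (−3.87, SE 0.79, adjusted p = 0.00896) in edgeR; Nefl and Nefm had 0 counts in AnnexinV-positive libraries. The summed level of 12 mitosis genes was 1514 to 2641 CPM in the AnnexinV-positive group against 48.6 to 1304 CPM in the double-negative group. Of its 8 tested genes 1 rose, the kinetochore gene Cenpf (2.01, SE 0.46, adjusted p = 0.0176 in edgeR), while Cenpe had 1.72 and Tpx2 1.39 (adjusted p = 0.0735 and 0.238 in edgeR). Cenpf lost the call in 6 of 24 alternatives, with adjusted p up to 0.152: within replicates 1 to 3, within replicates 4 to 6, on the second table, without double-negative libraries 3 and 5, without double-negative library 3 alone and without AnnexinV-positive library 1. The summed level of 10 progenitor markers was 1510 to 2630 CPM in the AnnexinV-positive group against 648 to 1978 CPM in the double-negative group, with 0 of 9 tested markers past the threshold in edgeR (6 higher at an unadjusted p under 0.05, and 2 called by DESeq2) and Vim (1.11), Notch1 (1.12) and Prom1 (1.67) at adjusted p of 0.0926, 0.0958 and 0.115 in edgeR. Of the 9 tested progenitor markers 7 had a positive and 2 a negative sign. The 2 with a negative sign, named after their values were seen, were the progenitor transcription factor genes Sox2 (−0.50, SE 0.40, adjusted p = 0.592 in edgeR), with each of the 6 AnnexinV-positive values under the median of double-negative libraries, and Pax6 (−0.032, SE 0.53, adjusted p = 0.988 in edgeR). In bulk libraries fewer cells of a type and less RNA per cell cannot be told apart, and the part of cell makeup, or of the lower number of detected genes in double-negative libraries, in the values of the cyclins was not tested.

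**Figure D4:**
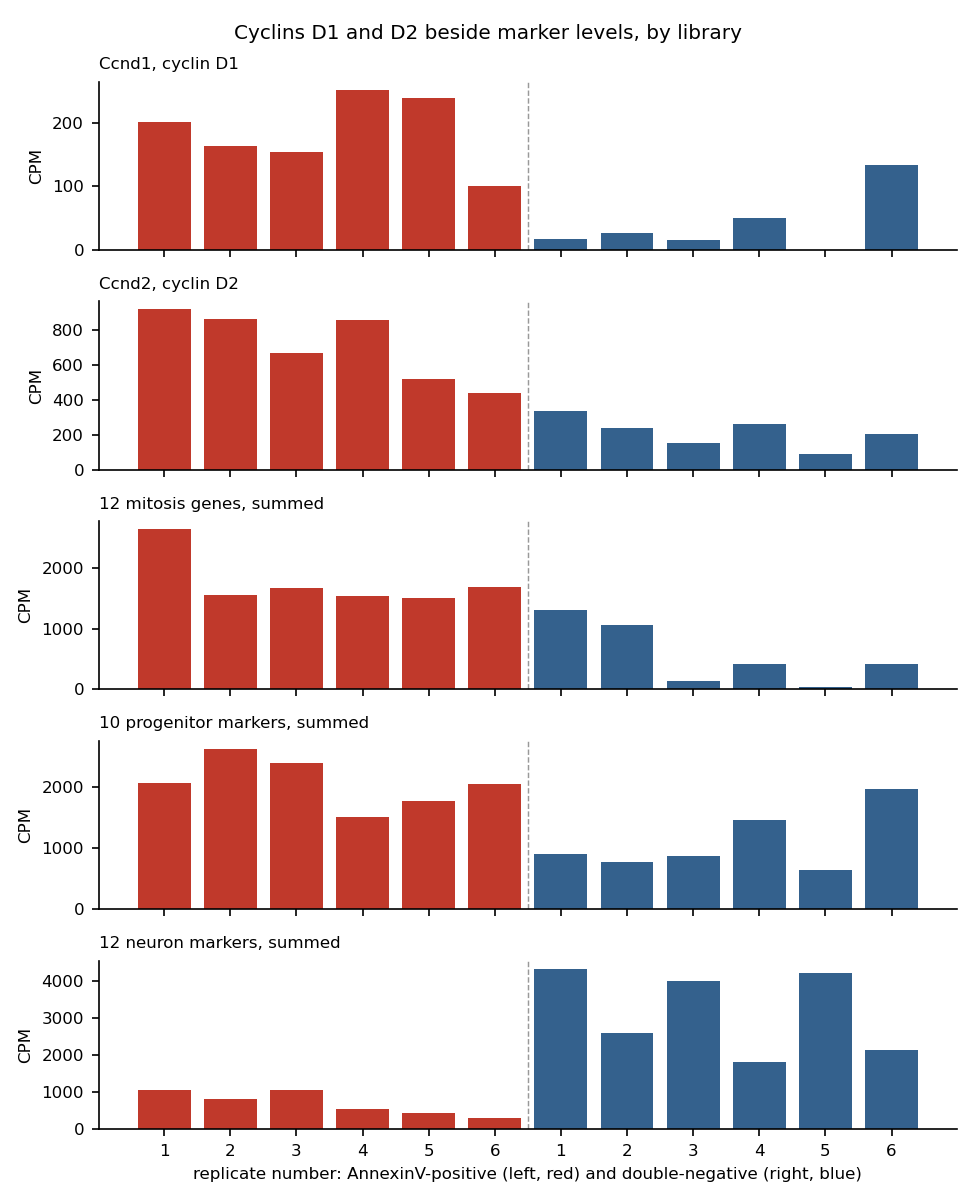
CPM of Ccnd1 and Ccnd2 and summed CPM of mitosis genes, progenitor markers and neuron markers in each library, AnnexinV-positive replicates 1 to 6 at the left (red) and double-negative replicates 1 to 6 at the right (blue). Double-negative library 6 has the highest Ccnd1 (133 CPM) and progenitor sum (1978 CPM) of its group, and neuron sums are at most 1064 CPM in AnnexinV-positive libraries and at least 1817 CPM in double-negative ones.

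Within the double-negative group, library 6, with the highest Ccnd1, had the highest progenitor sum (1978 CPM) and the second lowest neuron sum (2129 CPM). Its mitosis sum was 421 CPM, below those of libraries 1, 2 and 4 (1304, 1061 and 426 CPM). Library 5, with no Ccnd1 count and the lowest Ccnd2 (89.0 CPM), had the lowest progenitor sum (648 CPM) and the lowest mitosis sum (48.6 CPM). Library 1, with the highest Ccnd2 of the group (337 CPM), had the highest neuron sum (4333 CPM), the highest mitosis sum (1304 CPM) and a progenitor sum of 904 CPM. Markers of other tissues were uneven too. The 5 endothelial genes summed to 0 to 275 CPM in AnnexinV-positive libraries and had 0 counts in every double-negative library. The 6 mesenchyme genes summed to 0 to 800 CPM in the AnnexinV-positive group against 0 to 38.1 CPM in the double-negative group, with Dcn at 0 in both groups. All were below the count filter. With no filter, Col1a1, Col1a2 and Col3a1, named after their values were seen, passed (adjusted p = 4.28e-06, 8.03e-07 and 0.00488 in edgeR). Their double-negative counts were 0. Lum (adjusted p = 0.153) and Pdgfrb (−2.615, adjusted p = 0.398) did not pass in that edgeR fit. The 6 macrophage genes summed to 0 to 379 CPM in the AnnexinV-positive group against 0 to 75.0 CPM in the double-negative group, with C1qa at 0 in both groups. The part of these cells in the values of the cyclins was not tested. Intermediate progenitor markers summed to 18.3 to 522 CPM in the AnnexinV-positive group against 21.3 to 599 CPM in the double-negative group, and Neurod1 (−1.50), Eomes (−0.59) and Neurog2 (0.45) did not pass (adjusted p = 0.317, 0.829 and 0.840 in edgeR).

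Profiles were compared as log2 CPM over the 12 libraries, with each gene centred on its mean. Genes with predicted-gene, clone or pseudogene names and mitochondrially encoded genes were left out, also from the median. Of the other tested genes, those closest to the cyclins were ranked by the root mean square difference. For Ccnd2 they were Eef1d, a translation elongation factor subunit (0.50), Polr2a, the large subunit of RNA polymerase II (0.51), the importin gene Kpna4 (0.54), Socs4 (0.54) and Ckap5, a microtubule polymerase of the spindle (0.56), where the median gene was at 1.25. For Ccnd1 they were the Polycomb gene Eed (0.57), the Hedgehog co-receptor gene Boc (0.61), Dnajc1 (0.61), Mtx1 (0.71) and Magt1 (0.72), where the median gene was at 1.68. Ccnd1 and Ccnd2 were 0.87 apart. Of the 10 genes named, Eed passed in the comparison of the groups (log2 fold change 2.84, adjusted p = 0.0160 in edgeR), beside 0.395% of all tested genes called higher. The 10 were picked for closeness over the same 12 libraries, which includes the difference between groups, so this call is a description.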

How the data were processed

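The values are estimated counts per gene symbol, deposited by the authors in a table named raw counts; 8.84% of the nonzero values are not whole, so counts were rounded to whole numbers for the tests, where the design had assumed either kind. A second table deposited by the authors is named TPM, but its columns have no fixed sum, and it was treated as a score. Trimmomatic, STAR, featureCounts and Seurat 4 and the builds GRCm38 and mm10 are named, per the submitters' processing notes, with no role; the sources used here do not give the annotation, strand setting or filters, so near-identical and overlapping genes are uncertain. Library totals and the worth of a single count are given above; without molecular identifiers, limits from 0 counts (3 counts) cover counting error only.

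The whole table was fitted with edgeR 4.0.16 (R 4.3.3): filterByExpr (minimum count 10, minimum total 15), TMM, robust quasi-likelihood test, sort group as sole term, two-sided, Benjamini-Hochberg over 3800 genes, threshold 0.05; SE is the fold change over the square root of F. Filtered members took their values from a fit over all 17283 genes with a count. Log2 CPM used a prior count of 2; the second table was fitted as log2(score + 1) in limma 3.58.1, and DESeq2 1.42.0 was an alternative. The members, 10 further lists of 136 genes and the alternatives were chosen with earlier results of these data known. Named were the members, the 6 genes of smallest p in both pathway lists, 3 in each marker list and the 5 nearest to Ccnd1 and Ccnd2 each. Positions come from GENCODE M21 and promoter windows from RefSeq. Any other gene is named as chosen afterwards or as an overlap or marker at 0.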

Additional observations from a re-analysis of the deposited data

Results flagged for a closer look

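A library was set apart where its gap to the nearest library of its group of 6 exceeded 0.625 of the group's range (Dixon's test). For normally distributed values chance passes this limit in about 1 of 20 groups. Of 40 groups screened 7 passed it. A group with a single nonzero library passes by construction and a group of zeros cannot pass, so these 7 cannot be read against that rate. Ccnd1 in double-negative library 6 stood at 133 CPM, with the next library at 49.7 CPM. The mitosis sum of AnnexinV-positive library 1 was 2641 CPM, with the next at 1683 CPM. The other 5 were marker sums of other tissues. Red blood cell genes summed to 93.1 CPM in AnnexinV-positive library 3 (next 31.0) and to 538753 CPM in double-negative library 2 (next 166232). None of them passed the count filter, so these CPM are not shares of all counts. Macrophage genes summed to 379 CPM in AnnexinV-positive library 1 (next 24.1) and to 75.0 CPM in double-negative library 1 (next 0). Mesenchyme genes summed to 38.1 CPM in double-negative library 2 (next 0).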

How the results depend on the processing

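Ccnd2 kept a positive fold change in all 24 alternatives (1.46 to 1.95) and lost its call in 1, within replicates 4 to 6. The number of members higher was 1 in the fit as reported. It was 2 with upper-quartile scaling, in DESeq2, with the numbered set as a term, on the second table, without double-negative libraries 1 to 3 and within replicates 1 to 3, 3 with no filter, 0 within replicates 4 to 6, and 1 to 2 when a library was left out, double-negative library 6 giving 2. The number of E2F target and S-phase genes higher, 1 as reported, was 0 within replicates 1 to 3, within replicates 4 to 6, on the second table and without double-negative libraries 3 and 5, 2 without double-negative libraries 1 to 3, and 1 to 3 when a library was left out. The number of other G1/S regulators higher, 0 as reported, was 1 with no filter and 0 in each fit with a library left out. Over all genes, 15 higher and 56 lower became 42 and 55 with upper-quartile scaling, 101 and 136 with no filter, 74 and 127 in DESeq2, 28 and 72 with the numbered set as a term, 1 and 10 within replicates 4 to 6, 22 and 24 when double-negative libraries 1 to 3 were left out, 17 and 15 on the second table, and 4 and 11 without double-negative libraries 3 and 5; with a library left out, 10 to 49 were higher and 39 to 77 lower. The share of calls that were higher was 21.1% as reported and 43.3% with upper-quartile scaling. Leaving out double-negative libraries 3 and 5 was chosen after seeing the data. The cause of these changes was not tested.

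The fold change of Ccnd3 in the unfiltered fit changed sign to 0.55 with the replicate block, 0.024 with the numbered set as a term, 1.14 within replicates 4 to 6, 0.80 excluding double-negative libraries 1 to 3 and 0.83 on the second table, and ran from −0.29 to 0.50 with a library left out. Rb1 changed sign to 0.47 within replicates 1 to 3 and Eomes to 0.48 without double-negative libraries 3 and 5. With the replicate number as a block, 1 member was higher, and 19 genes rose and 52 fell. Deviations of same-numbered libraries had correlations from −0.01 to 0.08 over 3800 genes, and not every library correlated best with its own number. Counting noise at this depth can hide a pairing, so these correlations cannot decide whether the number pairs libraries. The median of the tested genes moved by 0.16 with no filter, 0.12 with the block and 0.36 on the second table. A single count was worth up to 15.4 CPM, which limits Ccnd3, Rbl1, E2f1, the INK4 genes and the double-negative values of Ccnd1.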
